A study of Homo sapiens with 18 samples.

Results

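The 10 genes described here are members of the bone morphogenetic protein (BMP) pathway in Hep3B, a human line derived from liver cancer cells. They were chosen by name from the 36684 gene symbols of the count table, with earlier results of these data known. All 10 passed the filter on low counts that left 14557 genes for testing. They comprise the ligand genes BMP2 and BMP4, the BMP-activated SMAD genes SMAD1 and SMAD9, the inhibitory SMAD genes SMAD6 and SMAD7, and the ID genes ID1, ID2, ID3 and ID4. The study asked how fucoxanthin (FUCO), a carotenoid of brown algae, alters a fatty-acid-loaded hepatocyte model. RNA was sequenced from 18 libraries in 6 groups of 3, all of the same line. Con was the control, and Model received free fatty acids (FFA). FUCO-0.5, FUCO-1 and FUCO-2 received FFA with FUCO at 0.5, 1 or 2 μM, and RES received FFA with resmetirom, an agonist of thyroid hormone receptor beta that served as the positive control. Con was therefore the only group without FFA, and no group received FUCO or RES alone. The methods describe the libraries as biological replicates, and with 3 per group each p-value measures the spread between these cultures of a single line. The FFA concentration, the treatment times and the RES dose of these libraries are not given in the sources used here.

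BMPs are secreted ligands that bind pairs of serine/threonine kinase receptors. The receptors phosphorylate SMAD1, SMAD5 and SMAD9, which enter the nucleus with SMAD4 and switch on target genes, among them the ID genes and the inhibitory SMAD6 and SMAD7. SMAD6 and SMAD7 act back on the receptors and so limit the signal. ID proteins carry a helix-loop-helix fold without the basic region that contacts DNA, and they hold E proteins such as TCF3 and TCF12 in dimers that cannot bind DNA. In the liver, BMP signaling is best known for driving hepcidin, the hormone that controls iron export.

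The ID genes stood at the center of the differences below, and the 250 bases upstream of each start site are shown because ID1, ID3 and ID4 followed each other across the libraries more closely than they followed ID2. The sequences are from RefSeq on GRCh38.p14, 5′ to 3′ on the strand of the gene, with matches to the searched motifs in capitals. They lie at chr20:31605039-31605288 (ID1, plus strand), chr2:8681806-8682055 (ID2, plus strand), chr1:23559502-23559751 (ID3, minus strand) and chr6:19837120-19837369 (ID4, plus strand), each next to the first exon.
ID1: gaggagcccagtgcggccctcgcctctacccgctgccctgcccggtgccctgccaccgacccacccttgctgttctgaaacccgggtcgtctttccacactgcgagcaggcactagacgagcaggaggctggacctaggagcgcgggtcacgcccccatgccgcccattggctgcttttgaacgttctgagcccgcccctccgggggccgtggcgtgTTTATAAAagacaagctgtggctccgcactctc
ID2: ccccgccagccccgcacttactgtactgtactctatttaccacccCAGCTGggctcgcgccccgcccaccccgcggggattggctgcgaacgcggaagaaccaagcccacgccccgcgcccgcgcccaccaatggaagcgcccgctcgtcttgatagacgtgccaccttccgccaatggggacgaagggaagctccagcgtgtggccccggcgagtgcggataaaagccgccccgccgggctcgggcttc
ID3: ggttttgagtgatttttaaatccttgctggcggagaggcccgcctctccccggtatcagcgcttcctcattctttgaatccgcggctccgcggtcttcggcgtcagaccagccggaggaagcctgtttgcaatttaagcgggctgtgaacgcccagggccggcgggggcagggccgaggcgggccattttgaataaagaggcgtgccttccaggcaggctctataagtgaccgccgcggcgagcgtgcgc
ID4: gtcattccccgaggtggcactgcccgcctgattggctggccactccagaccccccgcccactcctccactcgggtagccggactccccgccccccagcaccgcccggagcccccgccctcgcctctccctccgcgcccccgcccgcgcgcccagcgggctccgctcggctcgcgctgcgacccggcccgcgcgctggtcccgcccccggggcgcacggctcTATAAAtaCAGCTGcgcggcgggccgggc

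The 7 motifs were searched on both strands in these windows and in the same windows of 35097 promoters. The capitals in ID1 are 2 overlapping TATAAA matches, a TATA box read on both strands, whose first bases lie 33 and 31 bases before the start site. ID4 held a TATAAA at 29 bases and a CAGCTG at 21 bases before its start site. ID2 held a single CAGCTG, an E-box of the kind bound by the E proteins that ID proteins sequester, at 205 bases before the start site. TATAAA occurred in 10.7% of all promoters and CAGCTG in 14%. The ID3 window held none of the searched motifs. For each gene with a promoter entry, 1 start site was used, the first listed. In BMP4, SMAD1 and SMAD9 that start site lay inside the gene span given below. The bases before those spans were not searched. GGCGCC, a GC-rich SMAD site found in 16.4% of promoters, occurred among the 9 genes with a promoter entry only in BMP4, 232 bases before its start site. GTCTAGAC, a paired SMAD box found in 0.182% of promoters, occurred only in SMAD6, 12 bases before its start site. GGCGCC followed after 5 bases by GTCT, the composite BMP response element, occurred in 0.0769% of promoters and in none of the 9. The EGR site GCGTGGGCG (0.721% of promoters) and the cyclic AMP response element TGACGTCA (1.65%) were also in none of the 9. Only the windows were searched, and bases further from the start sites were not. The absence of a motif from a window therefore cannot show that the gene lacks it elsewhere. The windows of ID1, ID2, ID3 and ID4 were 66.0%, 69.2%, 62.0% and 78.8% G or C, against a median of 58.0% over all promoters. A match is a description of these letters and not a binding site.

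Library totals ran from 16916688 to 23083498 counts. Albumin and the other 7 hepatocyte markers checked were detected in every library, with 7935 to 40367 CPM of ALB. For markers, CPM is the count divided by the unscaled library total and multiplied by 1e6. The summed hepatocyte markers were 53808 to 57294 CPM in Con, 46136 to 47255 in Model, 40006 to 49437 in FUCO-0.5, 41798 to 43308 in FUCO-1, 32384 to 36995 in FUCO-2 and 15091 to 15378 in RES. Of the 4 stellate or fibroblast markers, PDGFRB had 17 to 344 counts per library, COL1A1 12 to 56, DCN 0 to 3 and ACTA2 0. Their sum was 17.1 to 19.9 CPM in Con, 12.1 to 15.3 in Model, 11.7 to 12.9 in FUCO-0.5, 12.5 to 16.2 in FUCO-1, 10.4 to 12.9 in FUCO-2 and 3.17 to 3.77 in RES. Of the 3 endothelial markers, PECAM1 had 3 to 36 counts, VWF 0 to 1 and CDH5 0, with sums of 0.153 to 0.709 CPM in Con, 1.13 to 1.42 in Model, 0.942 to 1.90 in FUCO-0.5, 0.794 to 1.34 in FUCO-1, 0.641 to 1.34 in FUCO-2 and 0.653 to 0.780 in RES. The leukocyte markers CD68, PTPRC and CD3E had at most 7, 2 and 1 counts. The hepatocyte and stellate sums were thus highest in Con and lowest in RES, and the part of these lists in the results below was not tested. Con replicate 1 stood apart from the other Con libraries. Its counts differed from theirs by a chi-square of 16.1 and 13.7 per degree of freedom, against 2.34 between those libraries. It was not alone in this. FUCO-2 replicate 1 differed from the other FUCO-2 libraries by 20.03 and 19.31, against 5.909 between those. FUCO-0.5 replicate 2 differed from replicates 1 and 3 of its group by 10.76 and 18.53, against 6.031 between those. Calls that changed without FUCO-2 replicate 1 are given with their genes. For all genes other than the markers, CPM is the count divided by the library total after scaling by TMM, a factor that evens out composition, and multiplied by 1e6. Con replicate 1 held 44.8% of the mean CPM of the other Con libraries for ID1, 29.2% for ID3, 57.1% for ID4 and 65.2% for SMAD6, while BMP2, BMP4, SMAD1, SMAD9 and ID2 were at 94.1% to 101.4%. Of 13077 genes with a mean of at least 1 CPM, 2.1% were under 60% in this library. Results against Con are therefore followed by their values without Con replicate 1.

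ID2 was the most abundant of the ID genes. Per kilobase of transcript, ID2 stood at 296 CPM in Model, ID1 at 58.6, ID3 at 4.28 and ID4 at 2.11. On the same scale BMP2 stood at 15.7 and BMP4 at 13.9 CPM per kilobase in Model, SMAD7 at 4.57, SMAD1 at 3.24, SMAD6 at 2.50 and SMAD9 at 0.682. The counts behind these levels ranged from 3105 to 7528 per library for ID2 down to 22 to 180 for ID3 and 61 to 112 for SMAD9. In bulk RNA, fewer cells that express a gene and less RNA per cell cannot be told apart.

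**Figure D1:**
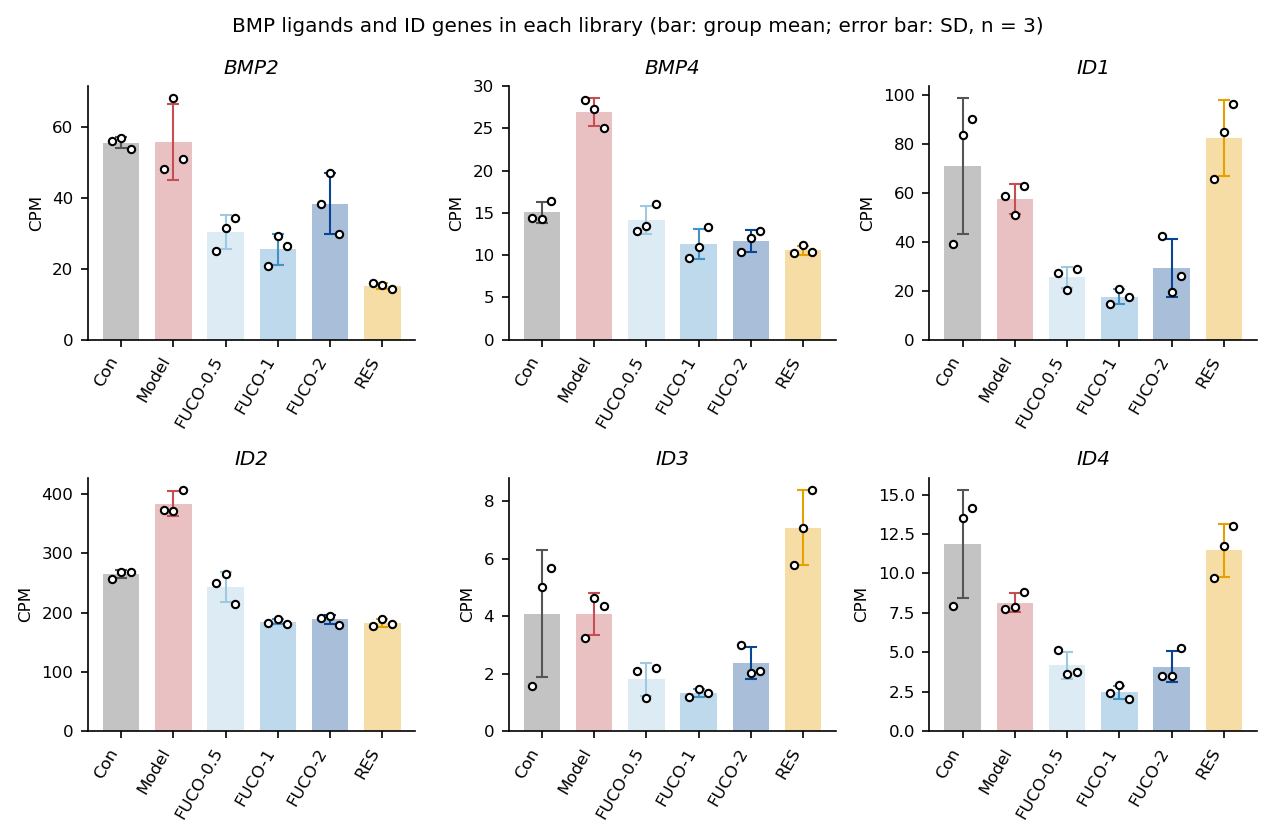
Level of the BMP ligand and ID genes in CPM (vertical axis, from 0) in each of the 18 libraries, by group. Points are libraries, bars are group means and error bars are SD (n = 3). BMP4 and ID2 are highest in the 3 Model libraries, while ID1, ID3 and ID4 are lowest in FUCO-1 and high in RES.

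The first comparison asked what FFA loading did. BMP4 and ID2 rose in Model, ID4 fell, and the other 7 genes did not pass the test. A gene was called where its Benjamini-Hochberg adjusted p over the 14557 genes, from edgeR's quasi-likelihood test, was under 0.05. Of all genes tested, 8.43% were called higher and 9.12% lower in this comparison, so that 2 of 10 higher and 1 of 10 lower are to be read against these shares. The median log2 fold change was -0.005 over the 10 genes and 0.0011 over all genes.

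BMP4 (chromosome 14, 53949736 to 53956891, minus strand) encodes a ligand that patterns many tissues in the embryo, including the liver. It stood at 14.4, 14.3 and 16.4 CPM in Con and at 28.4, 27.3 and 25.1 CPM in Model. All Model libraries lay above all Con libraries. The log2 fold change was 0.84 ± 0.11 (SE), with an adjusted p of 1.09e-05. An unnamed gene on the opposite strand, ENSG00000287156, overlaps exons of BMP4. It was not listed in the table, and whether counting used the strand is not given in the sources used here. ID2 (chromosome 2, 8682056 to 8684461, plus strand) stood at 257, 269 and 268 CPM in Con and at 373, 372 and 408 CPM in Model. These groups did not overlap, and the log2 fold change was 0.54 ± 0.07 (adjusted p = 1.02e-05). ID2-AS1 overlaps ID2 on the opposite strand, and no gene of that symbol was listed.

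The other ID genes were not higher in Model. ID4 (chromosome 6, 19837370 to 19842197, plus strand), a regulator of neural development, stood at 7.92, 13.6 and 14.2 CPM in Con and at 7.73, 7.90 and 8.83 CPM in Model. The groups overlapped through Con replicate 1. The log2 fold change was -0.54 ± 0.18 (adjusted p = 0.0414). ID1 (chromosome 20, 31605289 to 31606510, plus strand), a direct BMP target, stood at 39.0, 83.8 and 90.2 CPM in Con and at 58.8, 51.0 and 63.1 CPM in Model. Con replicate 1 lay below all Model libraries and the other Con libraries above them, and the log2 fold change was -0.30 ± 0.23 (adjusted p = 0.403). Without that library, ID1 was lower in Model by a log2 fold change of -0.60 (adjusted p = 0.0267), ID4 by -0.77 (adjusted p = 0.00102) and SMAD7 by -0.49 (adjusted p = 0.0206), while BMP4 was higher by 0.81 (adjusted p = 4.54e-05) and ID2 by 0.51 (adjusted p = 4.42e-05), so that 5 of the 10 genes were called. The other 5 stayed uncalled without it, at 0.01 for BMP2, 0.12 for SMAD1, -0.02 for SMAD9, 0.10 for SMAD6 and -0.40 for ID3. Of all genes tested without Con replicate 1, 9.79% were called higher and 10.9% lower, against which the 5 calls are to be read. SMAD7 was also called without FUCO-2 replicate 1 (adjusted p = 0.0450), in a fit of Con and Model alone (0.0448) and without the filter on low counts (0.0161), and ID1 without that filter (0.00996). With a single library left out, ID4 was no longer called for Con replicate 2 (adjusted p = 0.174), Con replicate 3 (0.225), Model replicate 1 (0.121), 2 (0.114) or 3 (0.0694) and RES replicate 2 (0.0507).

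The second question was how FUCO moved the model. BMP2, BMP4, ID1, ID2 and ID4 were lower than in Model at all 3 doses, ID3 was lower at 1 μM, and none of the 4 SMAD genes was called at any dose. No gene of the 10 was called higher. By DESeq2 no SMAD gene was called at these doses either, and by edgeR at an unadjusted p under 0.05 only SMAD9 was higher, at 0.5 and 2 μM. In FUCO-0.5, 5 of 10 genes were called lower, where 1.16% of all genes were lower and 0.289% higher. In FUCO-1, 6 of 10 were lower, where 2.32% of all genes were lower and 0.893% higher. In FUCO-2, 5 of 10 were lower, where 9.71% of all genes were lower and 10.8% higher. The median log2 fold change over the 10 genes was -0.77, -1.09 and -0.66 at 0.5, 1 and 2 μM, against 0.0006, -0.0017 and 0.0096 over all genes. The 3 comparisons share the Model libraries. Since the 10 genes were chosen with earlier results of these data known, their counts beside these shares are a description and not a test.

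**Figure D2:**
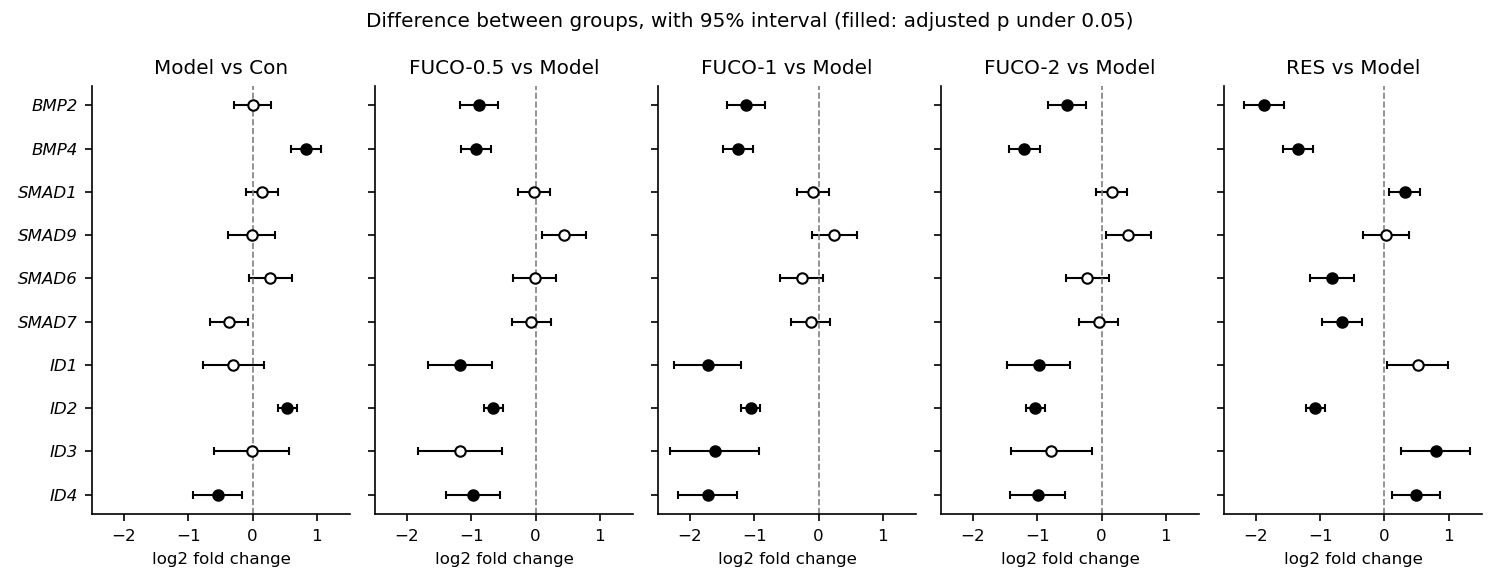
Log2 fold change (horizontal axis) of each of the 10 genes in 5 comparisons, with its 95% interval. Filled points have an adjusted p under 0.05, and the dashed line marks no difference. BMP2, BMP4, ID1, ID2 and ID4 lie left of the line with filled points in all 3 FUCO panels, while SMAD1, SMAD9, SMAD6 and SMAD7 are open there.

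Of the ligands, BMP2 (chromosome 20, 6767686 to 6780246, plus strand), a ligand known for inducing bone, stood at 48.1, 68.1 and 50.9 CPM in Model. It fell to 25.1, 31.4 and 34.4 CPM in FUCO-0.5 and to 20.7, 29.3 and 26.4 CPM in FUCO-1. It stood at 38.3, 46.9 and 29.9 CPM in FUCO-2, where the highest library was just below the lowest of Model. The log2 fold changes were -0.88 ± 0.14 (adjusted p = 0.000648), -1.13 ± 0.15 (adjusted p = 1.56e-05) and -0.54 ± 0.14 (adjusted p = 0.00867). The call at 2 μM was lost without Model replicate 2, the highest of its group (-0.37, adjusted p = 0.0919), and without FUCO-2 replicate 3 (-0.39, adjusted p = 0.0593). BMP2 did not differ between Con and Model beyond its spread (0.00 ± 0.14, interval -0.28 to 0.29).

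BMP4 stood at 12.8, 13.5 and 16.0 CPM in FUCO-0.5, which overlapped with Con. It stood at 9.71, 10.9 and 13.3 CPM in FUCO-1 and at 10.3, 11.98 and 12.8 CPM in FUCO-2, below all Con and Model libraries. The log2 fold changes against Model were -0.93 ± 0.11 (adjusted p = 7.75e-06), -1.25 ± 0.12 (adjusted p = 5.03e-08) and -1.20 ± 0.12 (adjusted p = 1.17e-07). ID2 took the same order of groups. It stood at 251, 264 and 215 CPM in FUCO-0.5, at 183, 190 and 181 CPM in FUCO-1 and at 191, 195 and 180 CPM in FUCO-2, all below the 372 CPM of the lowest Model library. The log2 fold changes were -0.66 ± 0.07 (adjusted p = 1.69e-06), -1.06 ± 0.07 (adjusted p = 2.98e-10) and -1.03 ± 0.07 (adjusted p = 1.47e-09).

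ID1, ID3 and ID4 were lowest at 1 μM. ID1 stood at 27.1, 20.5 and 28.8 CPM in FUCO-0.5, at 14.4, 20.6 and 17.4 CPM in FUCO-1 and at 42.3, 19.4 and 26.1 CPM in FUCO-2. Every FUCO library lay below the lowest Model library, and FUCO-2 replicate 1 stood above the other FUCO libraries. The log2 fold changes were -1.18 ± 0.24 (adjusted p = 0.00794), -1.73 ± 0.25 (adjusted p = 8.73e-05) and -0.98 ± 0.24 (adjusted p = 0.00503). The value at 2 μM without FUCO-2 replicate 1 was -1.34 (adjusted p = 0.000324). At 0.5 μM the call was lost without FUCO-0.5 replicate 2 (-1.04, adjusted p = 0.0667).

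ID3 (chromosome 1, 23557926 to 23559501, minus strand), like ID1 a direct target of BMP SMADs, stood at 3.24, 4.62 and 4.33 CPM in Model. It stood at 2.08, 1.15 and 2.18 CPM in FUCO-0.5, at 1.19, 1.48 and 1.31 CPM in FUCO-1 and at 2.995, 2.02 and 2.08 CPM in FUCO-2. The groups did not overlap with Model at any dose. The difference at 1 μM passed the test (-1.61 ± 0.34, adjusted p = 0.00576). The values at 0.5 μM (-1.17 ± 0.32, adjusted p = 0.0697) and 2 μM (-0.78 ± 0.31, adjusted p = 0.0749) missed it in the edgeR fit of all libraries. At 0.5 μM ID3 was called by DESeq2 (adjusted p = 0.0230), by edgeR in a fit of these groups alone (0.00597), without the filter on low counts (3.44e-06) and with the replicate number as a block (0.0406). At 2 μM it was called in the fit of these groups alone (0.0152) and without the filter (0.00166), but not by DESeq2. Both also passed without Con replicate 1, which enters the estimate of the spread shared by all groups (adjusted p = 0.00323 and 0.0107). At 0.5 μM the ID3 difference also passed without Con replicate 3 (0.0486), and at 2 μM without FUCO-2 replicate 1 (0.0484).

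ID4 stood at 5.16, 3.61 and 3.74 CPM in FUCO-0.5, at 2.43, 2.89 and 2.06 CPM in FUCO-1 and at 3.51, 3.51 and 5.26 CPM in FUCO-2. All 9 libraries lay below the Model range. The log2 fold changes were -0.97 ± 0.20 (adjusted p = 0.0109), -1.72 ± 0.22 (adjusted p = 1.56e-05) and -0.995 ± 0.21 (adjusted p = 0.00128). At 0.5 μM the call was lost without Model replicate 3 (adjusted p = 0.0702), FUCO-0.5 replicate 2 (0.0775) or FUCO-0.5 replicate 3 (0.0574).

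The SMAD genes stayed within narrower bounds. SMAD1 (chromosome 4, 145480770 to 145559176, plus strand), which carries the BMP signal to the nucleus, stood at 9.27, 9.96 and 9.96 CPM in Model and between 8.19 and 11.6 CPM in the 9 FUCO libraries. Its log2 fold changes were -0.02 (95% interval -0.27 to 0.23), -0.08 (-0.33 to 0.17) and 0.16 (-0.09 to 0.40) at 0.5, 1 and 2 μM. SMAD1-AS1, which overlaps it on the opposite strand, had 0 counts in every library. SMAD6 (chromosome 15, 66702236 to 66782849, plus strand), an inhibitor with a preference for BMP receptors, stood at 5.84, 9.14 and 8.76 CPM in Con and at 10.3, 9.07 and 9.37 CPM in Model. Its log2 fold changes against Model at 0.5, 1 and 2 μM were -0.01 (-0.34 to 0.32), -0.26 (-0.60 to 0.07) and -0.22 (-0.56 to 0.12). At 2 μM the SMAD6 libraries lay below the Model range without passing the test (adjusted p = 0.369).

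SMAD7 (chromosome 18, 48919853 to 48950965, minus strand), which inhibits both BMP and TGF-beta receptors, stood at 16.5, 20.2 and 22.5 CPM in Con and at 15.8, 14.2 and 15.9 CPM in Model. These groups did not overlap, and the log2 fold change missed the threshold (-0.37 ± 0.14, adjusted p = 0.0788). Its log2 fold changes with FUCO against Model were -0.07 (-0.37 to 0.24), -0.12 (-0.42 to 0.18) and -0.04 (-0.35 to 0.26). SMAD9 (chromosome 13, 36844831 to 36920854, minus strand), also called SMAD8, stood at 3.56, 4.28 and 3.52 CPM in Model, at 4.72, 5.12 and 5.58 CPM in FUCO-0.5 and at 5.13, 5.54 and 4.51 CPM in FUCO-2. Those FUCO libraries lay above the Model range without passing the test (0.44, interval 0.09 to 0.79, adjusted p = 0.275, and 0.42, interval 0.07 to 0.77, adjusted p = 0.0819). At 1 μM the SMAD9 groups overlapped (0.25, interval -0.11 to 0.60). These intervals bound the SMAD differences and do not show that the levels were equal.

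**Figure D3:**
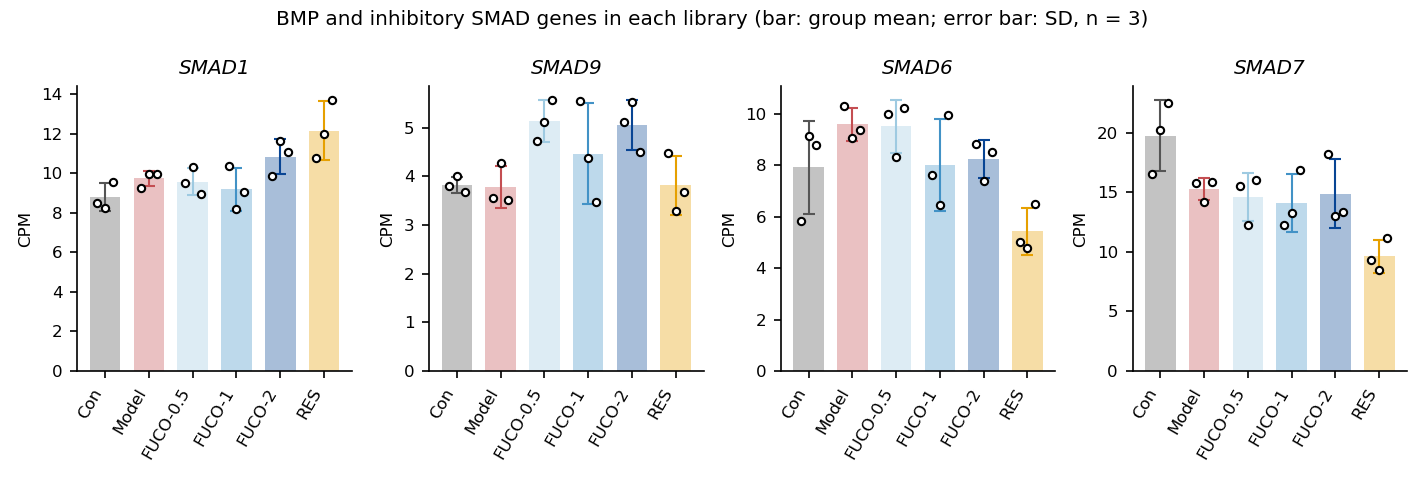
Level of the SMAD genes in CPM (vertical axis, from 0) in each of the 18 libraries, by group. Points are libraries, bars are group means and error bars are SD (n = 3). SMAD6 and SMAD7 are lowest in RES, and the FUCO libraries overlap Model for SMAD1 and SMAD7.

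RES gave another pattern. Both ligands, ID2, SMAD6 and SMAD7 were lower than in Model, while SMAD1, ID3 and ID4 were higher. These were 5 lower and 3 higher of 10 genes, where 25.1% of all genes were called lower and 24.4% higher. The median log2 fold change was -0.32 over the 10 genes and 0.0023 over all genes. The summed hepatocyte markers were also lowest in RES, at 15091 to 15378 CPM against 46136 to 47255 in Model, as were the summed stellate markers, at 3.17 to 3.77 against 12.1 to 15.3, and their part in these differences was not tested. BMP2 stood at 15.9, 15.3 and 14.1 CPM in RES, below every other library (-1.88 ± 0.15, adjusted p = 2.26e-10). BMP4 stood at 10.2, 11.2 and 10.3 CPM (-1.35 ± 0.11, adjusted p = 6.45e-10). ID2 stood at 177, 189 and 181 CPM (-1.08 ± 0.07, adjusted p = 9.70e-12). All 3 genes were clear of the Model range.

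The inhibitory SMAD genes were also lower. SMAD6 stood at 5.01, 4.79 and 6.48 CPM in RES (-0.82 ± 0.17, adjusted p = 0.000258), and SMAD7 at 9.29, 8.45 and 11.1 CPM (-0.66 ± 0.15, adjusted p = 0.000755). Neither overlapped with Model. SMAD1 stood at 10.8, 11.95 and 13.7 CPM (0.32 ± 0.12, adjusted p = 0.0268), and SMAD9 at 4.48, 3.28 and 3.69 CPM (0.02, interval -0.33 to 0.37).

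ID1, ID3 and ID4 went the other way from ID2. ID1 stood at 65.8, 84.9 and 96.7 CPM in RES, all above the Model range, but the difference missed the threshold (0.51 ± 0.23, adjusted p = 0.0633). In an edgeR fit of RES and Model alone ID1 was called (0.51, adjusted p = 9.55e-05), as it was without the filter on low counts (7.33e-08). The ID1 difference also passed without Con replicate 1 (0.0146), FUCO-2 replicate 1 (0.0278) or 2 (0.0425), or RES replicate 1 (0.0345). ID3 stood at 5.77, 7.05 and 8.40 CPM (0.80 ± 0.26, adjusted p = 0.0140), and ID4 at 9.69, 11.7 and 13.0 CPM (0.49 ± 0.18, adjusted p = 0.0273). RES replicate 3 was the highest RES library for SMAD1, ID1, ID3 and ID4. Without it SMAD1 (adjusted p = 0.166), ID3 (0.0729) and ID4 (0.124) were not called, and without Model replicate 1 they were also lost (0.0949, 0.0765 and 0.0857). The ID4 call was further lost without Model replicate 2 (0.0747) and RES replicate 2 (0.0646).

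Set against Con, which lacked FFA, the FUCO groups were lower for ID1 and ID4 at all 3 doses and for ID2 at the upper doses. Calls in either direction were made for 5 of 10 genes in FUCO-0.5, 7 in FUCO-1, 6 in FUCO-2 and 7 in RES, where 21.9%, 18.3%, 24.8% and 57.3% of all genes were called. These comparisons share the Con libraries. ID1 was lower than in Con by -1.48, -2.03 and -1.28 on the log2 scale at 0.5, 1 and 2 μM (adjusted p = 8.21e-05, 2.59e-06 and 0.000304), and without Con replicate 1 by -1.77, -2.32 and -1.57. ID4 was lower by -1.51, -2.27 and -1.54 (adjusted p = 5.41e-06, 4.44e-08 and 3.59e-06), and without that library by -1.73, -2.49 and -1.76. FUCO-1 thus held 24.6% of the Con mean for ID1 and 20.7% for ID4. ID3 was lower by -1.19 and -1.63 at 0.5 and 1 μM (adjusted p = 0.00908 and 0.00132) and by -0.79 at 2 μM, where it missed the threshold (adjusted p = 0.0616). The groups overlapped with Con in the calls of ID1 at 2 μM and of ID3 at 0.5 μM. Without Con replicate 1 the ID3 differences at 0.5 and 1 μM were -1.57 and -2.01. The ID3 difference at 2 μM passed without Con replicate 1 (-1.18, adjusted p = 0.000387) or FUCO-2 replicate 1 (-0.996, adjusted p = 0.0392).

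BMP2 was lower than in Con by -0.88, -1.13 and -0.53 at the 3 doses (adjusted p = 8.98e-05, 4.96e-06 and 0.00721). The BMP2 call at 2 μM was lost without FUCO-2 replicate 3 (adjusted p = 0.0567). BMP4 and ID2 in FUCO-0.5 were not separable from Con (-0.09, interval -0.34 to 0.15, and -0.12, interval -0.27 to 0.03). At 1 and 2 μM ID2 was below Con (-0.52 and -0.49, adjusted p = 1.34e-05 and 1.88e-05), as was BMP4 (-0.42 and -0.36, adjusted p = 0.0164 and 0.0282). SMAD7 was lower than in Con at 0.5, 1 and 2 μM (-0.44, -0.49 and -0.41, adjusted p = 0.0312, 0.0196 and 0.0388), with overlap between the groups at 1 and 2 μM. These calls of BMP2, BMP4, ID2 and SMAD7 were all kept without Con replicate 1. The values at 0.5, 1 and 2 μM were then -0.87, -1.12 and -0.52 for BMP2, -0.12, -0.44 and -0.39 for BMP4, -0.14, -0.54 and -0.51 for ID2 and -0.55, -0.60 and -0.52 for SMAD7.

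Several of these smaller differences rested on single libraries. Without Con replicate 3 the SMAD7 calls were lost at all 3 doses (adjusted p = 0.167, 0.127 and 0.202), the BMP4 calls at 1 and 2 μM (0.1003 and 0.145) and the ID3 call at 0.5 μM (0.0911). Without Con replicate 2 the SMAD7 calls were lost as well (0.0825, 0.0650 and 0.102). Without 1 of the treated libraries the SMAD7 calls were lost for FUCO-0.5 replicate 2 (0.156), FUCO-1 replicates 1 and 2 (0.107 and 0.0772) and FUCO-2 replicates 2 and 3 (0.166 and 0.136). The BMP4 calls were lost for FUCO-1 replicates 1 and 2 (0.109 and 0.0585) and FUCO-2 replicates 1 and 2 (0.120 and 0.0557), and the ID3 call for FUCO-0.5 replicate 2 (0.0583). At 2 μM, SMAD1 was called without FUCO-2 replicate 1 (0.37, adjusted p = 0.0456).

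In RES, ID1 and ID4 were near Con (0.21, interval -0.25 to 0.68, and -0.05, interval -0.42 to 0.31), and without Con replicate 1 the values were -0.08 and -0.28. ID3 was higher than in Con (0.78, adjusted p = 0.0134), a call lost without Con replicate 1 (0.39, adjusted p = 0.0923) or RES replicate 3 (0.0696). SMAD1 was higher (0.47, adjusted p = 0.00173), while BMP2 (-1.88), SMAD7 (-1.03), SMAD6 (-0.54), ID2 (-0.54) and BMP4 (-0.51) were lower. These 6 genes were still called without Con replicate 1, at 0.44 for SMAD1, -1.87 for BMP2, -1.15 for SMAD7, -0.72 for SMAD6, -0.56 for ID2 and -0.55 for BMP4. The SMAD6 call was lost without Con replicate 2 (adjusted p = 0.0581).

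Between FUCO doses, few of the genes were called. None of the 10 was called between FUCO-1 and FUCO-0.5 by edgeR, where 1 gene in all, or 0.00687%, was called. At an unadjusted p under 0.05 the count was 4 of 10, for which the share of all genes was not computed. DESeq2 called 1, ID2. ID2 came closest, with FUCO-1 below FUCO-0.5 without overlap (-0.40 ± 0.07, adjusted p = 0.0610), and was called without Con replicate 1 (0.0343), FUCO-0.5 replicate 3 (0.00416), or FUCO-2 replicate 1 (0.0331) or 3 (0.0429). BMP2 was higher in FUCO-2 than in FUCO-1 (0.60 ± 0.15, adjusted p = 0.0154), 1 of 10 genes where 6.30% of all genes were called. That call was lost without FUCO-1 replicate 1 (adjusted p = 0.0998) or 3 (0.0529), or FUCO-2 replicate 2 (0.145). ID1, ID3 and ID4 were above their FUCO-1 means in FUCO-2 by 0.75, 0.83 and 0.73 (adjusted p = 0.0839, 0.194 and 0.0739). These groups overlapped for ID1 but not for ID3 or ID4. Without Con replicate 1 all 3 genes were called (0.0179, 0.0470 and 0.0238), where 5.24% of all genes were called higher. ID1 was also called without FUCO-2 replicate 2 (0.0401). In a fit of these doses alone ID1 and ID4 were called (0.0142 and 0.0485), and DESeq2 called ID4 (0.0365).

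In the order of group means, BMP4 ran from RES (10.6 CPM) through FUCO-1, FUCO-2, FUCO-0.5 and Con (15.1) to Model (26.9), and only the step from Con to Model was free of overlap between neighbors. ID2 ran through the same groups, from RES (182 CPM) to Model (384 CPM), with gaps between FUCO-2 and FUCO-0.5 and between Con and Model. ID1 ran from FUCO-1 (17.5 CPM) through FUCO-0.5, FUCO-2, Model and Con to RES (82.4 CPM), with a gap only between FUCO-2 and Model. ID3 and ID4 also had FUCO-1 lowest, at 1.33 and 2.46 CPM.

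Over the 18 libraries, ID1 kept closest to ID3 and ID4 among the 10 genes, and BMP4 to ID2. On the log2 CPM scale, Pearson's r over the 18 libraries was 0.939 for ID1 with ID3, 0.942 for ID1 with ID4 and 0.866 for ID3 with ID4 (Spearman's rho 0.942, 0.928 and 0.843). With each group's mean removed, r was 0.862, 0.581 and 0.662, and 0.793, 0.399 and 0.474 without Con replicate 1. Within groups SMAD7 was closer to ID1 (0.767, and 0.739 without Con replicate 1) than ID4 was, and it kept to SMAD6 (0.813 and 0.791) and ID3 (0.668 and 0.633) as well. BMP4 and ID2 had an r of 0.916 (rho 0.822) that came from the group means, since it was -0.465 within groups. ID1 and ID2 had an r of 0.329. BMP2 followed SMAD7 (r = 0.743), BMP4 (0.693) and ID2 (0.708) while its r with ID1 was 0.054. These values describe 18 libraries that share 6 treatments and carry no test.

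**Figure D4:**
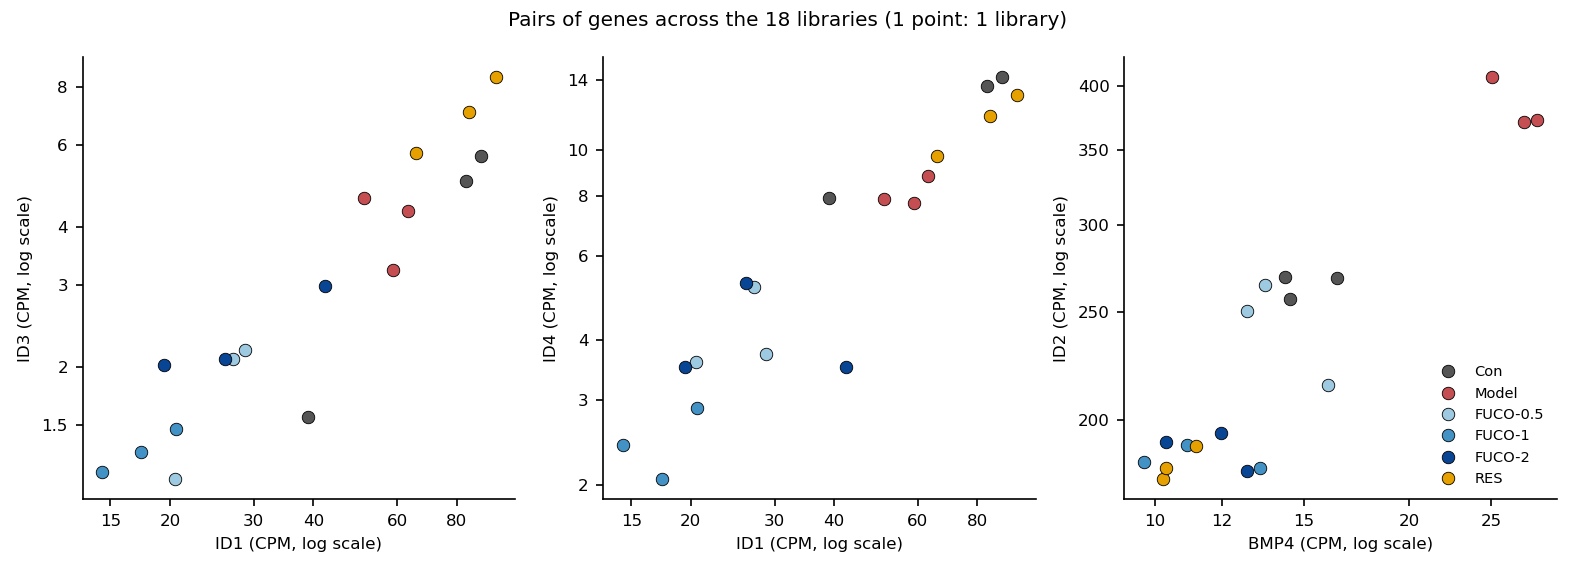
Levels of ID3 and ID4 against ID1, and of ID2 against BMP4, in CPM on log axes, with 1 point per library colored by group. ID1, ID3 and ID4 spread along a line from FUCO-1 to Con and RES, with Con replicate 1 apart from its group at 39.0 CPM of ID1. For BMP4 and ID2, the 3 Model libraries stand alone at the upper right.

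The balance within the ID family shifted with them. ID2 made up 72.6% ± 8.2 (SD, n = 3) of the summed ID level per kilobase in Con and 82.0% ± 0.83 in Model. Without Con replicate 1, at 82.1%, the Con mean was 67.9%. The ID2 share was 86.5% ± 3.2 in FUCO-0.5, 87.8% ± 1.6 in FUCO-1, 81.5% ± 5.6 in FUCO-2 and 60.04% ± 4.3 in RES. The RES libraries, at 55.8% to 64.3%, lay below all others, of which the lowest was a Con library at 67.1%. The summed ID level per kilobase was 361 ± 21 CPM in Model, 162 ± 6.5 in FUCO-1 and 235 ± 20 in RES. The ID sum in RES therefore held more ID1 for each unit of ID2, with ID1 at 59.7% of ID2 per kilobase on average against 19.8% in Model.

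A list of 63 other BMP pathway genes was examined by role, of which 43 passed the filter. The 20 others had at most 21 counts in any library, among them the ligands BMP7 and GDF2, the antagonists NOG and GREM1 and HAMP, which encodes hepcidin and had 0 to 2 counts. In Model against Con, 4 of the 43 (9.30%) were higher and 4 (9.30%) lower, which is near the 8.43% and 9.12% of all genes and so is no result about the list, and the median log2 fold change was -0.01. Without Con replicate 1, a setting added for this list after the data were seen, 44 genes passed the filter, of which 4 were higher and 9 lower, where 9.79% and 10.9% of all genes were. FST (-1.14), RGMB (0.74), TWSG1 (0.58) and SMAD2 (-0.49) were among them. Called lower there, but not in the fit of all libraries, were NBL1 (-0.43), GDF7 (-0.38), CRIM1 (-0.28), BMPR2 (-0.29) and LEMD3 (-0.26). In the fit of all libraries, the higher genes were the receptor ACVR2A (0.31), the coreceptor RGMB (0.72), TWSG1 (0.76) and the ubiquitin ligase SMURF1 (0.31). TWSG1 modulates ligand binding outside the cell. The lower genes in the fit of all libraries were the type I receptor ACVR1 (-0.23), FST (-0.98), SMAD2 (-0.38) and the antiproliferative corepressor TOB1 (-0.35).

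With FUCO, 0 of the 43 were higher and 2 lower at 0.5 μM, 0 and 6 at 1 μM, and 2 and 7 at 2 μM by edgeR. As shares of the list these were 0% and 4.65%, 0% and 14%, and 4.65% and 16.3%, against 0.289% and 1.16%, 0.893% and 2.32%, and 10.8% and 9.71% of all genes. At an unadjusted p under 0.05 the counts were 0 and 6, 1 and 10, and 3 and 10. The shares of all genes at that threshold were not computed, so these counts cannot be set against the shares above. The median log2 fold changes were -0.03, -0.13 and -0.06. HES1, a repressor of transcription best known as a Notch target, had the largest change in the list at each dose. It stood at 263 ± 3.2 CPM in Model (SD, n = 3) and at 97.9 ± 6.7, 66.9 ± 1.5 and 90.5 ± 15.8 CPM in FUCO-0.5, FUCO-1 and FUCO-2 (log2 fold changes -1.42, -1.97 and -1.54, adjusted p = 6.12e-08, 2.03e-10 and 1.48e-08). FST, which encodes follistatin, an extracellular antagonist of activins and BMPs, fell from 22.7 ± 4.6 CPM in Con to 11.5 ± 0.71 in Model (adjusted p = 5.25e-05) and to 5.20 ± 1.3, 5.78 ± 0.65 and 5.99 ± 0.55 CPM with FUCO (-1.14, -0.99 and -0.94 against Model, adjusted p = 0.000187, 0.000649 and 0.000311). FST in Con replicate 1 was at 69.2% of the other Con libraries. The genes called higher at 2 μM were the antagonist FSTL3 (0.33, adjusted p = 0.0360) and RUNX2, a regulator of bone formation, with 7 to 11 counts in the Model libraries and 10 to 33 in the FUCO-2 libraries, which overlapped (1.07, adjusted p = 0.0492).

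The receptors and the SMADs of the list, which are SMAD2, SMAD3, SMAD4 and SMAD5, moved less. SMAD2 and SMAD3 are not among the SMADs named above as phosphorylated by BMP receptors. At 1 μM, 2 of 6 receptors were lower, ACVR1 (-0.28) and ACVR2A (-0.31), along with the decoy receptor BAMBI (-0.37) and LEMD3 (-0.31), an inner nuclear membrane protein that binds SMADs. At 2 μM, ACVR1 (-0.31), ACVR2A (-0.63), SMAD3 (-0.29), LEMD3 (-0.21) and the SMAD phosphatase PPM1A (-0.27) were lower. SMAD5 and SMAD4, the partners of SMAD1 and SMAD9, were not called at any FUCO dose. SMAD5 stood at 138 ± 5.3 CPM in Model and at 142 ± 7.3, 130 ± 12 and 131 ± 6.0 CPM with FUCO.

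In RES, 7 of the 43 (16.3%) were higher and 21 (48.8%) lower than in Model, where 24.4% and 25.1% of all genes were, and the median was -0.31. Of the receptors 4 of 6 were lower, of the SMADs 3 of 4, and of the E protein partners of ID both TCF3 (-0.74) and TCF12 (-0.23). Among the called genes, changes over 1 on the log2 scale were in GATA2 (-1.09), the hepatic coreceptor HJV (-1.42), the antagonists CER1 (-2.17) and CHRDL2 (1.35) and the ligand BMP6 (1.34), which in liver is a main inducer of hepcidin. GATA2 stood at 20.6 ± 1.6 CPM in Model and 9.66 ± 0.67 in RES. HJV had 52 to 63 counts in the Model libraries and 21 to 33 in RES, and BMP6 had 7 to 10 and 17 to 32. CER1 and CHRDL2 had at most 49 and 21 counts in these libraries, so that both stood on few reads. The ligand BMP7, outside the 43, had 1 to 3 counts in the Model libraries and 12 to 21 in RES. In the fit without Con replicate 1 it passed the filter. There it was called higher in RES than in Model (2.60, adjusted p = 7.75e-05), also on few reads.

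**Figure D5:**
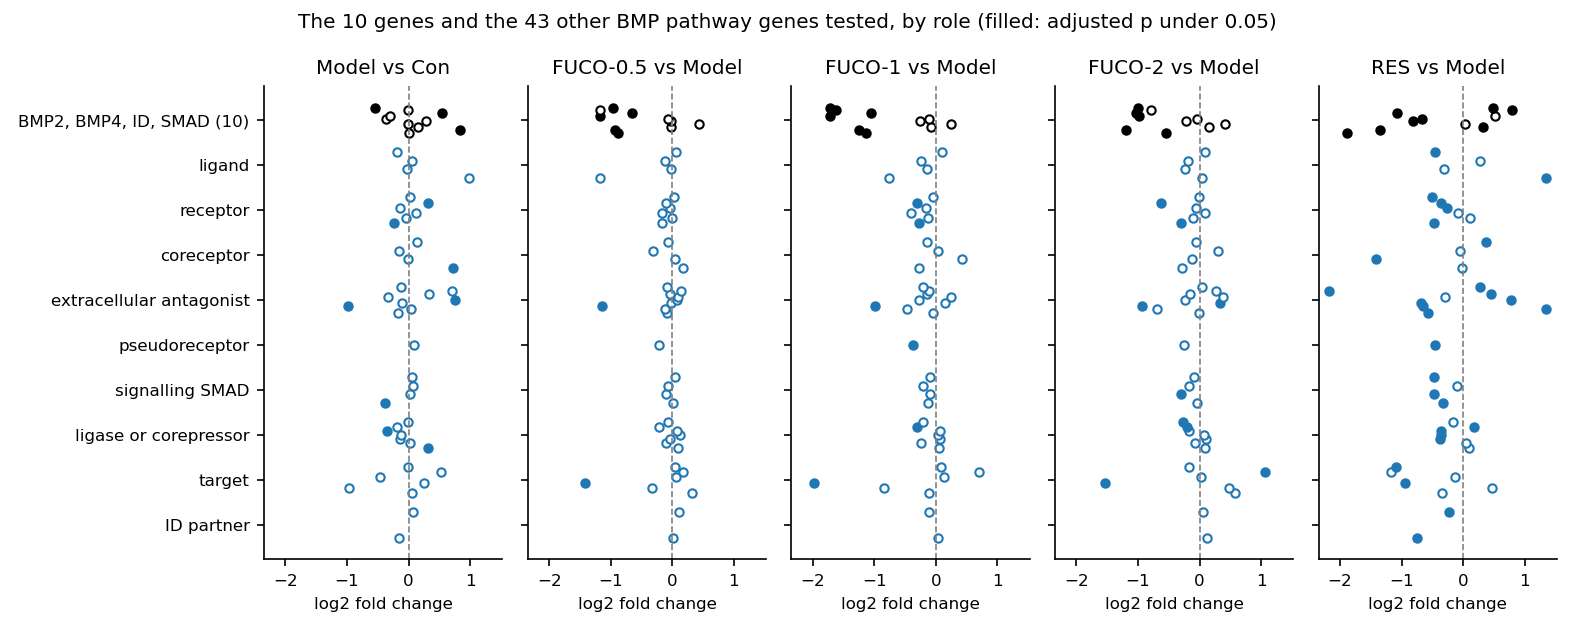
Log2 fold change (horizontal axis) of the 10 genes (black) and of 43 other BMP pathway genes (blue) in 5 comparisons, in 1 row per role. Each point is a gene, and filled points have an adjusted p under 0.05. With FUCO most pathway genes lie near 0, with HES1 far to the left in the target row, while in RES 28 of 43 are filled.

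Over 13077 genes with a mean of at least 1 CPM, the genes most like ID1 in log2 CPM over the 18 libraries were DNAJB9 (r = 0.928), LMO4 (0.900), LEMD3 (0.900), CSRNP1 (0.886) and ERRFI1 (0.885). DNAJB9, a chaperone of the endoplasmic reticulum, had group means of 63.1 CPM in Con, 58.3 in Model, 33.2, 29.0 and 40.4 with FUCO and 75.7 in RES. The genes most like BMP4 were GMNN (0.853), SOX4 (0.831), CA14 (0.815), MARCKS (0.813) and LOC101928499 (0.811). ID2 was closer to BMP4, at 0.916, than any of these. GMNN, which encodes the replication inhibitor geminin, had group means of 157 CPM in Con, 192 in Model, 160, 138 and 135 with FUCO and 133 in RES.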

How the data were processed

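Poly(A)-selected RNA of Hep3B cells was sequenced as paired-end reads. The authors trimmed reads with fastp, aligned them with STAR to GRCh38.p14 and counted them per gene with featureCounts, and the deposited values are these raw counts, with no normalization. The annotation named is GENCODE, and the strand setting and the handling of reads with several matches are not given in the sources used here. All 18 columns were mapped to groups and replicates by their titles. CPM of genes was the count divided by the TMM-scaled library total and multiplied by 1e6, and CPM of cell type markers used the unscaled total. Genes were filtered with filterByExpr (minimum count 10, minimum total 15), scaled by TMM and tested with edgeR 4.0.16 in R 4.3.3, in 1 quasi-likelihood fit of all libraries with a term per group. The fit assumes 1 shared trend of the spread. SE is the log2 fold change divided by the root of F, and intervals are 95% intervals of the same fit. Reads carry no molecular identifiers. Lengths are of canonical transcripts, and promoters and positions are from RefSeq on GRCh38.p14. RNA quality could not be read from mitochondrial genes, none of which is listed under an MT- symbol. Genes named were the 10 genes, pathway genes called with an absolute log2 fold change over 1 or behind a count of 5 or fewer, and the 5 genes most like ID1 and BMP4. The members and lists were chosen with earlier results of these data known. Alternatives were RLE factors, no filter, at least 10 counts in every library, DESeq2 1.42.0, fits of 2 groups, a replicate block, an added fold threshold and leaving out each library. The pathway list and the ID2 share in Con without Con replicate 1 were added after seeing the data. Among replicates, the chi-square of counts per degree of freedom ran from 2.34 to 20.0, so no pair of libraries agreed within sampling noise.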

Additional observations from a re-analysis of the deposited data

How the results depend on the processing

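Of 2640 values of the 10 genes under alternatives, 40 reversed, none of them of a called difference, and 53 of 1272 calls were lost. Most of the leave-one-out fits behind these totals left out a library of neither group compared. Such a library acts only through the shared filter, scaling and spread. The totals therefore do not measure how far the calls depend on their own libraries. Every alternative kept all 6 calls of FUCO-1 against Model. With no filter, 24090 genes were tested rather than 14557. The reason for the much lower adjusted p of ID1 and ID3 under that setting was not tested. There, 5 genes were called in Model against Con, 3 in FUCO-1 against FUCO-0.5 and 4 in FUCO-2 against FUCO-1. DESeq2 called 1 in FUCO-1 against FUCO-0.5 and 2 in FUCO-2 against FUCO-1. Fits of 2 groups called 3 in FUCO-0.5 against Con and 3 in FUCO-2 against FUCO-1. With an absolute log2 fold change over 1 as well, 0 genes were called in Model against Con by edgeR, 1 in FUCO-0.5, 2 in FUCO-2 and 3 in RES against Model. At an unadjusted p under 0.05 without the fold threshold, 4 passed in Model against Con, for which the share of all genes was not computed. Leaving out 1 library gave 2 to 5 calls in Model against Con, 3 to 6 in FUCO-0.5 and 5 to 9 in RES against Model, 3 to 5 in FUCO-0.5 against Con, 0 to 1 in FUCO-1 against FUCO-0.5 and 0 to 4 in FUCO-2 against FUCO-1. The main fit did not use the replicate number as a pairing. Of 15 same-numbered library pairs, over 5 pairs of groups, 3 had a correlation of deviations over 0.1 (range -0.045 to 0.1258). Pairs of unlike number were not computed, so these values do not decide whether the numbers mark a pairing. With the replicate block, ID2 was called in FUCO-1 against FUCO-0.5 (1 gene) and ID3 in FUCO-0.5 against Model (-1.17, adjusted p = 0.0406), no other call of the 10 genes changed, the log2 fold changes of BMP2 and ID3 in Model against Con were -0.011 and 0.014, and calls over all genes moved from 1 to 8 in FUCO-1 against FUCO-0.5 and from 2555 to 2617 in Model against Con.

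The values that reversed were all of differences that had not been called. BMP2 in Model against Con was -0.0003 with no filter, and SMAD9 in RES against Con was -0.0016 in a fit of 2 groups. Leaving out 1 library, values in Model against Con ran from -0.17 to 0.0984 for BMP2, -0.11 to 0.0353 for SMAD9 and -0.40 to 0.31 for ID3. In FUCO-0.5 against Model they ran from -0.078 to 0.026 for SMAD1, -0.0669 to 0.0766 for SMAD6 and -0.14 to 0.0461 for SMAD7, in FUCO-2 against Model from -0.21 to 0.0465 for SMAD7, and in RES against Model from -0.12 to 0.12 for SMAD9. Against Con they ran from -0.0255 to 0.15 for SMAD1 and -0.17 to 0.15 for SMAD6 in FUCO-1, -0.12 to 0.17 for SMAD6 in FUCO-2, and -0.13 to 0.0992 for SMAD9, -0.0823 to 0.42 for ID1 and -0.28 to 0.0917 for ID4 in RES. Between doses they ran from -0.15 to 0.0185 for SMAD1 and -0.20 to 0.0442 for SMAD7 in FUCO-1 against FUCO-0.5, and from -0.0468 to 0.18 for BMP4, -0.0888 to 0.22 for SMAD6 and -0.0916 to 0.22 for SMAD7 in FUCO-2 against FUCO-1. The cause was not tested. Without Con replicate 1, calls in the pathway list moved from 4 to 9 lower in Model against Con.

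Over all genes, fits of 2 groups called 351 rather than 211 in FUCO-0.5 against Model, 976 rather than 467 in FUCO-1 against Model, 2201 rather than 3617 in FUCO-2 against Con, 533 rather than 917 in FUCO-2 against FUCO-1 and 18 rather than 1 in FUCO-1 against FUCO-0.5, where DESeq2 called 57. In fits of 2 groups the calls lost were ID4 in Model against Con (adjusted p = 0.0642), BMP4 in FUCO-1 (0.0543) and FUCO-2 (0.0707) against Con, SMAD7 in FUCO-0.5 (0.0511) and FUCO-2 (0.0972) against Con, and ID3 in FUCO-0.5 (0.0632) and RES (0.0595) against Con. Calls gained there were SMAD7 in Model against Con (0.0448), ID3 in FUCO-0.5 (0.00597) and FUCO-2 (0.0152) and ID1 in RES (9.55e-05) against Model, and ID1 (0.0142) and ID4 (0.0485) in FUCO-2 against FUCO-1. ID3 and SMAD9 had few counts in all groups, and ID4 had 36 to 53 in FUCO-1, which limits how small a difference these genes can show.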
